A study of Mus musculus with 9 samples.

Results

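The large odorant receptor cluster of mouse chromosome 2 was taken as the genes from Olfr987 to Olfr1272 by number, with or without a -ps suffix, which marks a receptor named as a pseudogene. The deposited table of 55291 genes held 271 such members, 63 of them with the suffix, among 1408 genes with an Olfr number. Of these, 204 members were detected, which means 10 or more counts summed over the 9 mice, beside 905 of the 1137 other Olfr genes. In GRCm38 the members lay on chromosome 2 between 85330779 and 90292841, a span of 4.96 Mb, with 175 on the minus strand and 96 on the plus strand. Their numbers followed their order on the chromosome except at Olfr1139-ps1 and Olfr1140 and at Olfr1204 and Olfr1205, and 204 of the 270 adjacent pairs were on the same strand.

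RNA was sequenced from the dissected main olfactory epithelium of 8- to 12-week-old mice, 3 per genotype. All were on the C57BL/6 background. The Ms4a cluster knockout (Ms4a cluster-/-) carried a CRISPR/Cas9 deletion of the Ms4a gene family. The Ms4a6c knockout (Ms4a6c-/-) was made by homologous recombination and lacked that single gene. The controls for both were mice that the study calls wild-type littermates, without stating of which line. The wild-type group was the same 3 mice in both comparisons, so the 2 comparisons with wild type were not independent. Whole tissue was measured, so fewer neurons choosing a receptor and less receptor RNA per neuron could not be told apart.

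Odorant receptors are seven-transmembrane proteins coupled to G proteins, and each mature olfactory sensory neuron transcribes a single allele of a single receptor gene. The level of a receptor RNA in the whole epithelium therefore reflects both how many neurons chose the gene and how much each of them makes. The cluster on chromosome 2 holds class II receptors, the group that dominates in land vertebrates, and arose by repeated tandem duplication. MS4A proteins are four-transmembrane proteins that the study describes as odorant receptors. Members of the family act in the necklace neurons, a small set of sensory cells that do not use the conventional receptors. The study found MS4A1 (CD20) outside the necklace, in a separate sparse set of sensory neurons of the main olfactory epithelium.

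The receptors of the cluster shared a short coding stretch at the cytoplasmic end of the third transmembrane segment, which contacts the G protein. It was found in 218 of the 271 members. It is printed below for the member with the highest level, for members with the smallest p-values in the genotype comparisons, for a near-identical pair (Olfr1181 and Olfr1182), for an abundant -ps member and for Olfr1019, a receptor known for the fox odour TMT. Each line gives 42 bases from the GENCODE M21 transcript, 5′ to 3′. The capitals mark the codons for aspartate and arginine, which the search required, and the codon after them. That last codon was free to vary. It was TAT in most of the lines, TGT in Olfr1181 and Olfr1182 and TTT in Olfr1019.
Olfr1228 (chr2:89249273-89249314, minus strand): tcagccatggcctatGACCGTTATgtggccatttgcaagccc
Olfr1257 (chr2:89881167-89881208, plus strand): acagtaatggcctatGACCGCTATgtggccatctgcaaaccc
Olfr1258 (chr2:89930150-89930191, plus strand): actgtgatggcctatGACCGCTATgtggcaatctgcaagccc
Olfr1183 (chr2:88461678-88461719, plus strand): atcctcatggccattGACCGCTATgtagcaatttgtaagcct
Olfr1181 (chr2:88423643-88423684, minus strand): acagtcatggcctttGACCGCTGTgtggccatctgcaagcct
Olfr1182 (chr2:88446556-88446597, minus strand): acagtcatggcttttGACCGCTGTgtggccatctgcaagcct
Olfr1202 (chr2:88817512-88817553, plus strand): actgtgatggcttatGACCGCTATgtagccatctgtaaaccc
Olfr1192-ps1 (chr2:88652493-88652534, plus strand): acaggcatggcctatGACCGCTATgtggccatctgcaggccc
Olfr1019 (chr2:85841403-85841444, minus strand): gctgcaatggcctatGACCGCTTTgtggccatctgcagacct

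The coding starts of receptor genes usually lie on a separate exon from the transcription start. A RefSeq start at least 100 bases upstream of the coding start and within 50 bases of a GENCODE start was listed for 10 members. The first 200 bases of the 300-base window around that start (RefSeq, GRCm38.p6), all upstream of it, are printed for Olfr1213, among the 10 members with the highest level per kb, for Olfr1097, and for Olfr1182, the member with the smallest p in the Ms4a6c knockout. Capitals mark a match to CCCNNGGG, the core bound by EBF factors, in Olfr1213, and a match to TAATTA, a homeodomain core, in Olfr1097. Neither core was found in the window of Olfr1182.
Olfr1213 (chr2:88980318-88980517, minus strand): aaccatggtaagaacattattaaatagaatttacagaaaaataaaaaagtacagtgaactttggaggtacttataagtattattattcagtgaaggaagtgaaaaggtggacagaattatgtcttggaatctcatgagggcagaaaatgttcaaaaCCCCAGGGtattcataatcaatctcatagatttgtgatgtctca
Olfr1097 (chr2:86892214-86892413, minus strand): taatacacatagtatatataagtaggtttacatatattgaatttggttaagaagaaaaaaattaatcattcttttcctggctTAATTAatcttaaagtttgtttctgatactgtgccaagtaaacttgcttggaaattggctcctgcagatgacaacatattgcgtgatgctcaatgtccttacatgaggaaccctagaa
Olfr1182 (chr2:88449172-88449371, minus strand): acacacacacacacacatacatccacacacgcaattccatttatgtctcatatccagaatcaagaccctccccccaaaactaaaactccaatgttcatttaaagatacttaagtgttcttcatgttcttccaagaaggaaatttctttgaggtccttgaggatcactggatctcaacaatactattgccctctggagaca

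Over all 172 RefSeq windows of 171 members (250 bases before to 50 after the start, both strands searched), 2.33% held CCCNNGGG, against 3.23% of the windows of other Olfr genes and 13.7% of all 32851 windows. TAATTA or TAATGA was found in 44.8% of the members' windows, in 40% of those of other Olfr genes and in 13.9% of all windows. However, in 121 of the members' windows the RefSeq start lay at the coding start, so these shares describe the annotated starts rather than the transcription starts.

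The libraries held 13954591 to 21987174 expected counts, and the members took 18.6% of all Olfr counts in wild-type mice. The labels held for the deleted genes. Ms4a6c was at 3.84, 4.99 and 4.66 CPM (counts scaled to a common library size) in wild-type mice, at 0, 0.124 and 0.127 CPM in Ms4a6c knockout mice and at 0 counts in each Ms4a cluster knockout mouse. The 21 Ms4a genes in the table summed to 16.1, 16.3 and 17.1 CPM in wild-type mice and to 0 counts in each Ms4a cluster knockout mouse. Omp, which marks mature olfactory neurons, was at 4018 to 5215 CPM in all 9 mice. A pair of libraries stood apart by gland transcripts, since Obp1a, an odorant-binding protein of nasal glands, reached 25734 CPM in wild-type mouse 1 and 48916 CPM in Ms4a cluster knockout mouse 2, against 9.27 to 2758 CPM in the others. The female transcript Xist was at 247 to 366 CPM in wild-type mice 2 and 3, Ms4a6c knockout mouse 1 and Ms4a cluster knockout mice 1 and 2, and at 2.61 CPM or less in the rest.

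Detection went with the reading frame of the gene, and also with whether its model held untranslated bases upstream of the coding start. Of 204 members with such bases 198 were detected, and of 20 coding models without them 4 were. Which of these traits detection followed was not tested. Of the 213 members with an open reading frame of at least 900 bases, enough for a whole receptor, 196 were detected (92%), whereas 8 of the 58 without one were (13.8%). The annotation gave the same order, with 198 of 214 protein-coding genes detected against 1 of 44 unprocessed pseudogenes. The -ps suffix was a looser guide, since 7 of the 8 -ps members with such a frame were detected, as were 6 of the 55 without. Among the undetected members 35 had 0 counts in all 9 mice, which allows up to 3 counts over the 9 libraries. The limit itself ran through a thin part of the distribution, with Olfr993, Olfr1084 and Olfr1188 just inside at 11 counts and Olfr1066, Olfr1076, Olfr1136 and Olfr1158 just outside at 9.

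Receptor RNA was unevenly shared. Per kb of exon, detected members had a median wild-type level of 1.18 CPM per kb, ranging from 0.0142 to 16.3, beside 1.01 for other detected Olfr genes and 2.10 for all genes tested. In CPM, 31 members made up 50% of the wild-type sum of the cluster, 114 made up 90%, and Olfr1228, the most abundant, made up 4.21%. Olfr1228 was also highest per kb at 16.3 ± 3.02 CPM per kb (SD, n = 3), and its 9 values of 63.4, 51.7 and 43.9 CPM in wild type, 52.7, 38.7 and 45.5 in the Ms4a cluster knockout and 42.02, 56.2 and 49.8 in the Ms4a6c knockout overlapped between all genotypes. Olfr1257 followed at 10.6 ± 0.827 CPM per kb and Olfr1264 at 10.02 ± 2.08 CPM per kb, which did not differ beyond their spread. Olfr1110, Olfr1206, Olfr1261, Olfr1229, Olfr1112, Olfr1213 and Olfr1224-ps1 came next, in an overlapping series from 7.94 ± 0.995 down to 5.92 ± 0.878 CPM per kb. Of these 10 members 8 lay between Olfr1184 and Olfr1272, the last 82 of the cluster. Scaling to the coding length instead of all exons kept 6 of the 10, with Olfr1228 still highest.

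**Figure D1:**
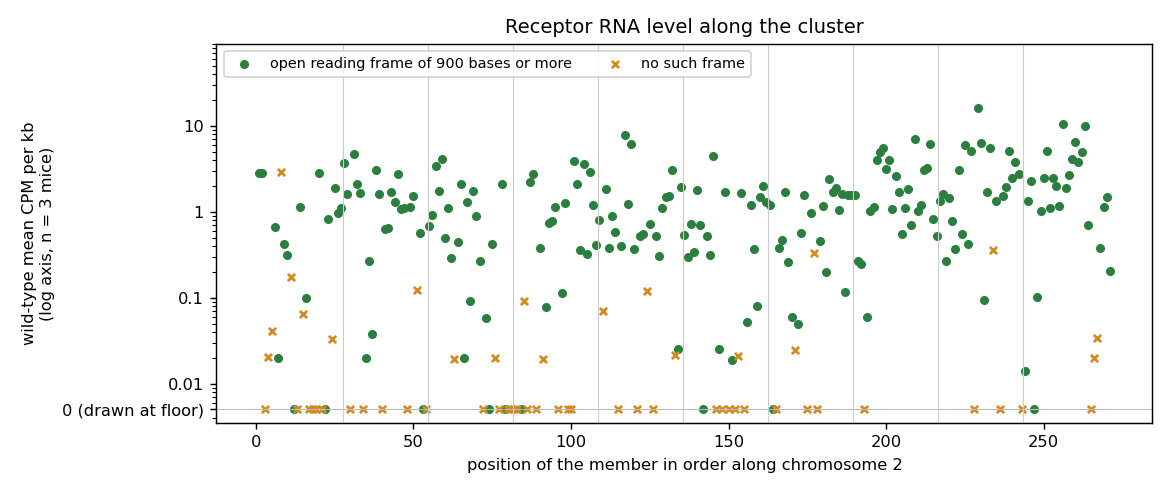
Mean wild-type level of each of the 271 members in CPM per kb of exon (log axis, n = 3 mice, members at 0 drawn on the floor line) against their order along chromosome 2, with grey lines between the blocks of 27 members. Members without a reading frame of 900 bases (orange crosses) sit mostly at or near 0, and most of the highest values lie at the right.

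Members named as pseudogenes were among the abundant ones, but the suffix did not always mean a broken reading frame. Detected members without a frame of at least 900 bases reached at most 2.93 CPM per kb in wild type. Olfr1224-ps1 lay above that, so it has such a frame. Olfr1224-ps1, the tenth by level, had 18.4, 16.1 and 13.7 CPM in wild-type mice. Olfr1192-ps1 had 32.3, 36.8 and 31.3 CPM, which placed it at rank 22 per kb, and it had at least 19.3 CPM in each of the 9 mice. Its nearest copy, Olfr475-ps1, is 98.3% identical over 928 bases and had at most 3.14 counts in any mouse. Olfr1025-ps1 was at rank 33, with 11.2, 10.8 and 10.9 CPM in wild type and 9.32, 4.68 and 8.57 CPM in the Ms4a cluster knockout. At the ends of the cluster, Olfr987 had 5.12, 4.88 and 4.44 CPM and Olfr1272 had 0.355, 0.222 and 0.910 CPM in wild-type mice. Olfr1019 had 4.41, 7.77 and 7.11 CPM in wild type, 7.06, 4.49 and 7.92 CPM in the Ms4a cluster knockout and 3.32, 8.44 and 6.69 CPM in the Ms4a6c knockout, and these values overlapped throughout.

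Most of the cluster's RNA came from its distal end. When the members were divided in order into 10 blocks of 27 (28 in the last), the last 3 blocks, from Olfr1184 to Olfr1272, held 17.9%, 20.9% and 22.5% of the wild-type sum, together 61.3% ± 0.958 (SD, n = 3) from 82 of the 271 members. The first block, Olfr987 to Olfr1014, held 3.39% ± 0.132 and had the fewest detected members, 15 of 27. Median levels of detected members marked off the distal end less clearly, at 1.38, 1.69 and 1.91 CPM per kb in the last 3 blocks, 1.41 in the second block and 0.71 to 1.06 in the other 6. The 7 blocks before Olfr1184 each held between 42.7 and 92.7 CPM in wild-type mice, compared with 225 to 284 CPM in each of the last 3.

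**Figure D2:**
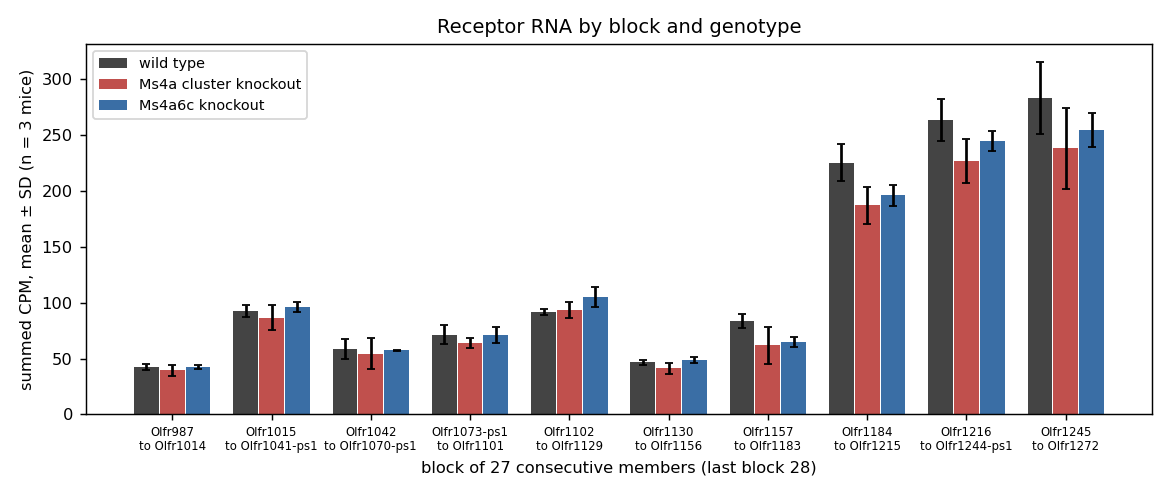
Summed CPM of each block of consecutive members (mean ± SD, n = 3 mice per bar) for wild type (grey), Ms4a cluster knockout (red) and Ms4a6c knockout (blue). The last 3 blocks are highest in every genotype, and their wild-type bars are above both knockout bars.

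Close relatives and close neighbours differed widely in level. A closest relative was found for 261 members, in the cluster itself for 242, with a median identity of 89.5% over the aligned bases. Members without a frame of at least 900 bases were compared by their whole transcript, the others by their reading frame. For the 165 detected members whose closest relative was a detected member, the median absolute difference in level was 1.26 on the log2 scale of CPM per kb. Across these genes the Spearman correlation of the levels was 0.20, and across 203 pairs of neighbouring detected members it was 0.18. Genes share libraries and relatives and are not independent, so these are descriptions. Olfr1182 had 7.25, 7.32 and 6.49 CPM in wild-type mice while Olfr1181, 97.1% identical to it, had 0.427, 0.499 and 0.512 CPM. Reads of such pairs can be divided wrongly between the copies, and 123 members, 101 of them detected, had a copy at least 90% identical over at least 300 bases.

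Variation over the 9 mice, differences between genotypes included, was that of receptor genes in general. Among the 119 members with a mean of at least 50 counts in wild-type mice, the median coefficient of variation over the 9 mice was 22.2%, compared with 21.2% for 462 other Olfr genes and 9.49% for 14009 genes of all kinds. The biological coefficient of variation of the edgeR fit by genotype had medians of 18.8%, 18.8% and 10.6% in these sets. Olfr1180 varied most (68.3%), with values of 1.37 to 5.69 CPM among the wild-type mice alone, followed by Olfr1182 (49.7%) and Olfr1176 (47.0%). Olfr1094 varied least (7.81%), with values of 3.06 to 3.81 CPM over all mice, followed by Olfr1012 (11.3%) and Olfr1018 (11.4%).

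The summed RNA of the cluster was lower in both knockouts than in wild type. It was 1231.5, 1328.8 and 1218.7 CPM in the wild type, 1161.8, 1051.7 and 1064.7 CPM in the Ms4a cluster knockout and 1194.6, 1169.9 and 1180.3 CPM in Ms4a6c knockout mice. The 3 genotypes did not overlap. The difference from wild type was -167 CPM for the Ms4a cluster knockout and -78.0 CPM for the Ms4a6c knockout, and the difference between the knockouts was -88.9 CPM. Each had p = 0.1 in the exact two-sided permutation test, the smallest p that 3 mice against 3 can give. With plain library totals in place of TMM scaling the Ms4a6c difference turned to 74.6 CPM (exact permutation p = 1), so its sign rests on the scaling. The Ms4a cluster knockout difference was then -155 CPM with overlapping groups (exact permutation p = 0.5), and the difference between the knockouts was -230 CPM (exact permutation p = 0.2). Per 1000 CPM of Omp, the members had 260 ± 12.9 CPM in wild type, 236 ± 22.5 in the Ms4a cluster knockout, which overlapped wild type (exact permutation p = 0.3), and 236 ± 11.6 in the Ms4a6c knockout, which did not (exact permutation p = 0.1, n = 3 each).

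As a share of all Olfr counts, which no scaling of the libraries affects, the members were also below wild type in both knockouts. The share was 18.6%, 18.7% and 18.4% in wild type, 17.3%, 18.3% and 16.8% in the Ms4a cluster knockout and 18.1%, 16.8% and 17.4% in the Ms4a6c knockout. All 6 knockout mice were below all 3 wild-type mice, by 1.11 percentage points on average for the Ms4a cluster knockout and 1.12 for the Ms4a6c knockout (exact permutation p = 0.1 each). The knockouts overlapped each other, with a difference of 0.00596 percentage points (exact permutation p = 1). Without the 2 libraries rich in gland transcripts the differences from wild type were -1.50 and -1.11 percentage points. Summed RNA of all Olfr genes was 6778 ± 286 CPM in wild type, 6264 ± 475 CPM in the Ms4a cluster knockout and 6770 ± 177 CPM in the Ms4a6c knockout (SD, n = 3), and overlapped between genotypes.

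**Figure D3:**
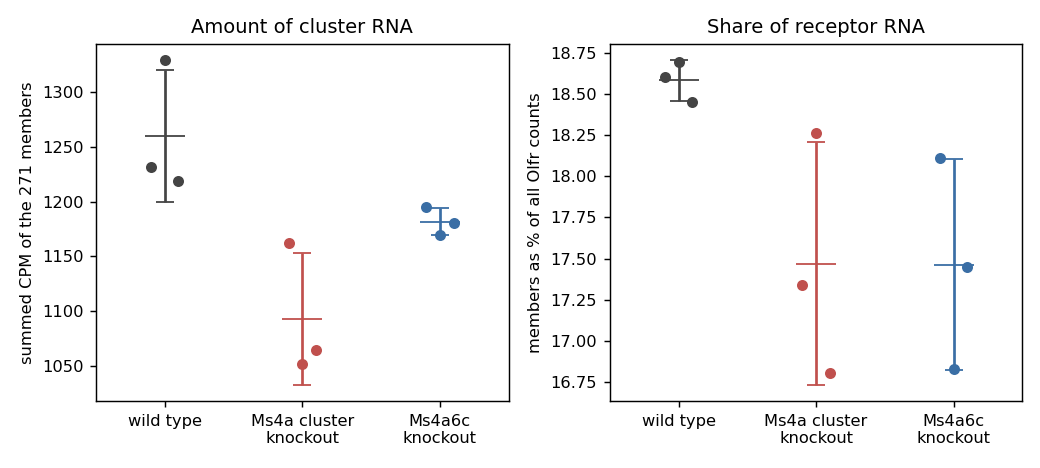
Left, summed CPM of the 271 members; right, the members as a percentage of all Olfr counts; each point is 1 mouse, with the group mean ± SD (n = 3). All knockout points lie below all wild-type points in both panels, and the vertical axes do not start at 0.

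No member passed the test when Ms4a cluster knockout mice were set against wild-type mice. With p-values of the edgeR quasi-likelihood F-test adjusted by Benjamini and Hochberg's method over 23225 genes, 0 of 204 detected members had an adjusted p under 0.05, where 0.0258% of all genes tested did. At an unadjusted p under 0.05, 25 members were lower and 1, Olfr1024, was higher, beside 2.68% and 2.25% of all genes tested. Thus 12.3% of the members were lower at this level, compared with 6.41% of other detected Olfr genes. The 3 mice of each genotype did not overlap for 31 members that were lower and 3 that were higher, beside 5.15% and 4.71% of all genes. DESeq2 called 1 member, Olfr1183, and 0.0775% of all genes. The median log2 fold change of the members was -0.13, against -0.07 for other Olfr genes and 0.01 for all genes. When the libraries were scaled over Olfr genes alone, which put the median of all genes at 0.12, the members' median was -0.02, with 14 lower and 2 higher at an unadjusted p under 0.05.

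The 5 members whose Ms4a cluster knockout p-values were smallest were all lower than in wild type, and all but Olfr1183 lay in the last 3 blocks. Olfr1183 (chr2:88454867-88469199, plus strand) had 11.6, 14.5 and 13.7 CPM in wild type, 6.96, 4.19 and 5.76 CPM in the Ms4a cluster knockout and 9.18, 7.51 and 10.9 CPM in the Ms4a6c knockout. The genotypes did not overlap, and the log2 fold change between Ms4a cluster knockout and wild type was -1.21 (SE 0.20, adjusted p = 0.234 by edgeR). Olfr1202 had 4.98, 4.27 and 3.41 CPM in wild type and 2.10, 1.99 and 2.16 CPM in the Ms4a cluster knockout, a log2 fold change of -1.01 (SE 0.21, adjusted p = 0.730 by edgeR). Its level was low in the Ms4a6c knockout as well, at 2.62, 1.99 and 2.23 CPM. Its copy Olfr1204, 96.7% identical, had 4.12, 4.88 and 5.63 CPM in wild type and 4.96, 4.09 and 3.86 CPM in the Ms4a cluster knockout, which overlapped. Olfr1206 had 23.3, 23.0 and 22.9 CPM in wild type and 16.7, 16.8 and 13.1 CPM in the Ms4a cluster knockout (log2 fold change -0.57, SE 0.13). Olfr1247 had 12.6, 14.9 and 14.3 CPM in wild type and 10.8, 7.97 and 9.17 CPM in the Ms4a cluster knockout (log2 fold change -0.57, SE 0.14). Neither pair of groups overlapped, and neither gene passed the test.

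In the Ms4a6c knockout 0 of 204 members had an edgeR adjusted p under 0.05 against wild type, where 0.435% of all genes did. At an unadjusted p under 0.05, 19 members were lower and 7 higher, beside 5.13% and 5.34% of all genes. The genotypes did not overlap for 23 lower and 16 higher members, beside 8.55% and 9.71% of all genes. DESeq2 called 4 members, Olfr1182, Olfr1184, Olfr1226 and Olfr1257, all lower, and 1.49% of all genes. The members' median log2 fold change was 0.01 and became -0.06 with the scaling over Olfr genes, so the group as a whole had no direction that held, while other Olfr genes had a median of 0.10 in the first scaling. Among other detected Olfr genes, 4.42% were lower and 7.85% higher at an unadjusted p under 0.05. The summed level of 5 markers of sustentacular cells, the supporting cells of the epithelium, was higher in the Ms4a6c knockout mice. The sum was 8819 to 9260 CPM in wild type and 10491 to 11147 CPM in the Ms4a6c knockout, with no overlap. In the Ms4a cluster knockout it was 8559 to 9390 CPM. The 5 did not move as one in the Ms4a6c knockout. None passed by edgeR, and 3 had an unadjusted p under 0.05, where 10.5% of all genes tested did. Of these, Cyp2g1 and Cyp1a2 had higher values (log2 fold changes of 0.32 and 0.26) and Ermn lower (-0.41). Sec14l3 was at 0.22 and Krt18 at 0.004. The part of these marker differences in the receptor values was not tested.

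The 5 smallest p-values in the Ms4a6c knockout belonged to members that were lower than in wild type. Olfr1182 (chr2:88442814-88449131, minus strand) had 7.25, 7.32 and 6.49 CPM in wild type and 2.87, 0.868 and 2.68 CPM in the Ms4a6c knockout, with no overlap. Its log2 fold change was -1.69 (SE 0.35, adjusted p = 0.0906 by edgeR). Olfr1257 (chr2:89878437-89883026, plus strand), next to Olfr1228 in level per kb, had 28.9, 31.6 and 27.1 CPM in wild type and 13.3, 14.3 and 19.4 CPM in the Ms4a6c knockout, again with no overlap. Its log2 fold change was -0.90 (SE 0.20, adjusted p = 0.116 by edgeR), while the Ms4a cluster knockout, at 24.3, 29.7 and 16.7 CPM, overlapped both. Olfr1202 followed, with a log2 fold change of -0.88 (SE 0.20). Olfr1211 went from 15.4, 12.0 and 11.4 CPM in wild type to 8.65, 8.13 and 9.75 CPM, and Olfr1226 from 41.3, 45.5 and 37.5 CPM to 30.0, 25.4 and 27.9 CPM. Both pairs of groups were separate, and neither gene passed the test.

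Lower values in the Ms4a6c knockout ran along a row of neighbours. The 7 members from Olfr1178 to Olfr1184, within 102 kb at chr2:88387062-88489284, were picked out after their values had been seen. Of these 6 had lower levels in the Ms4a6c knockout than in wild type and 5 had an unadjusted p under 0.05, with a median log2 fold change of -1.23 over the 7. Olfr1178 had 14.1, 12.8 and 10.4 CPM in wild type and 9.80, 7.38 and 6.75 CPM in the Ms4a6c knockout. Olfr1184 had 5.54, 5.55 and 3.93 CPM in wild type, 3.36, 1.67 and 1.21 CPM in the Ms4a6c knockout and 4.51, 3.49 and 4.41 CPM in the Ms4a cluster knockout. Olfr1181 was the exception, at 0.31 to 0.765 CPM in the Ms4a6c knockout, which overlapped its wild-type values. In the Ms4a cluster knockout 6 of the 7 were also below wild type, with a median of -0.60. There 66.7% of detected members and 48.2% of all genes tested were lower. At an unadjusted p under 0.05, 1 of the 7, Olfr1183, was lower, beside 2.68% of all genes tested.

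**Figure D4:**
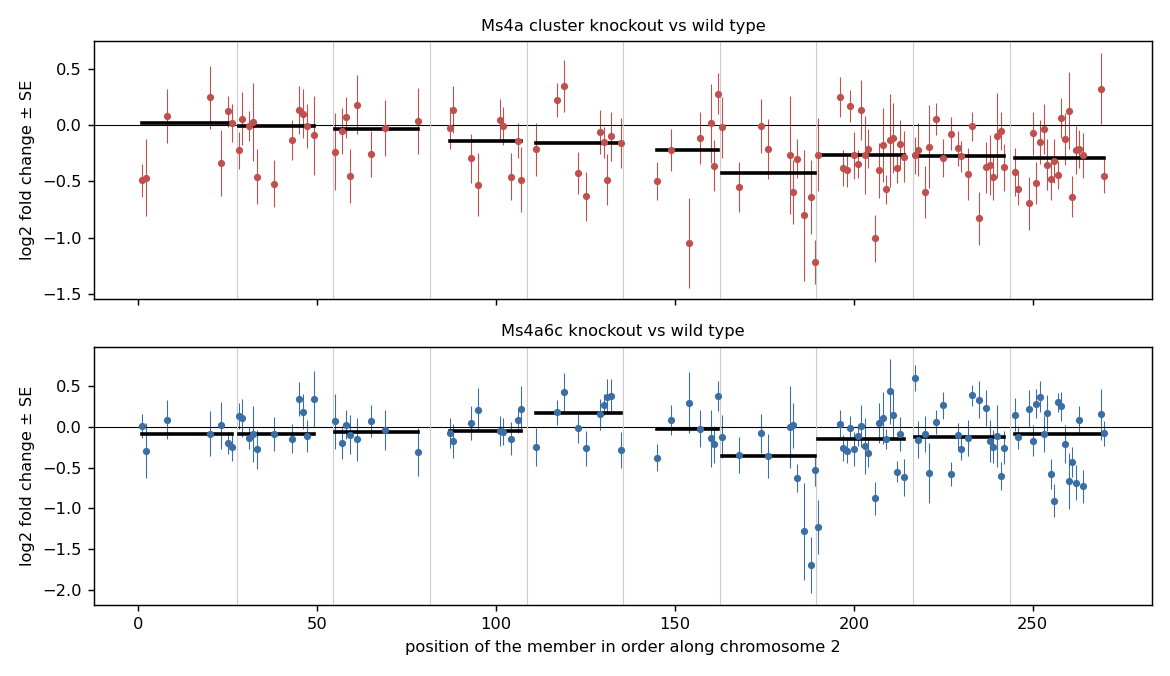
Log2 fold change against wild type (± SE) of the 119 members with a mean of at least 50 wild-type counts, along the order of the cluster, for the Ms4a cluster knockout (top) and the Ms4a6c knockout (bottom); black bars are block medians. Both panels use the same 3 wild-type mice. The medians of the last 4 blocks lie below 0 in both, and the lowest points of the lower panel are neighbours near position 188.

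Members lower than wild type at an unadjusted p under 0.05 lay mainly in the distal part in both knockouts. In blocks 7 to 10, from Olfr1157 on, 19 of 95 detected members were lower in the Ms4a cluster knockout and 0 higher. In the Ms4a6c knockout 16 were lower and 3 higher. In blocks 1 to 6, 6 of 109 were lower and 1 higher in the Ms4a cluster knockout, and 3 lower and 4 higher in the Ms4a6c knockout. Among all genes tested 2.68% were lower and 2.25% higher at this level in the Ms4a cluster knockout. In the Ms4a6c knockout these shares were 5.13% and 5.34%. Median log2 fold changes in blocks 7 to 10 were -0.23 and -0.09, and stayed below 0 with the scaling over Olfr genes, at -0.14 and -0.17. In blocks 1 to 6 they were -0.03 and 0.07, and 0.07 and 0.01 with that scaling. Distal members also had more counts, with a median of 109 per wild-type mouse against 44.7 in blocks 1 to 6, and the part of depth in these counts of members was not tested. Blocks 7 to 10 held 68.3%, 68.8% and 66.6% of the cluster's RNA in the wild type, 67.1%, 66.5% and 62.2% in the Ms4a cluster knockout and 63.5%, 64.0% and 65.7% in Ms4a6c knockout mice. The Ms4a6c knockout did not overlap wild type, and the Ms4a cluster knockout did. In blocks 8 to 10 alone both knockouts overlapped wild type. The shares there were 61.2%, 62.3% and 60.34% in wild type and 57.6%, 58.7% and 60.36% in the Ms4a6c knockout. In the Ms4a cluster knockout they were 61.7%, 62.2% and 55.0%. The division into blocks 1 to 6 and 7 to 10 was drawn after the values were seen, so it was not tested.

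Between the knockouts 1 of 204 members passed, Olfr1258 (chr2:89927309-89936334, plus strand), where 0.443% of all genes did. Olfr1258 had 9.32, 10.3 and 10.4 CPM in the Ms4a cluster knockout, 18.9, 14.1 and 17.1 CPM in the Ms4a6c knockout and 12.4, 14.3 and 13.9 CPM in wild type. The knockouts did not overlap, and the log2 fold change of Ms4a cluster over Ms4a6c knockout was -0.75 (SE 0.12, adjusted p = 0.0284 by edgeR with Benjamini-Hochberg adjustment). The call was lost in 5 of the 6 fits that left out 1 knockout mouse, with adjusted p between 0.0767 and 0.159 by edgeR, and held without Ms4a6c knockout mouse 2 at 0.0186. Scaling over Olfr genes gave a log2 fold change of -0.56 and an edgeR adjusted p of 0.133. No near-identical copy of Olfr1258 was found, and its neighbour Olfr1257 is 82.3% identical.

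At an unadjusted p under 0.05, 28 members were lower in the Ms4a cluster knockout than in the Ms4a6c knockout and 12 higher, beside 4.7% and 4.68% of all genes. Other detected Olfr genes were lower at nearly the same rate, 12.8% against 13.7% of the members. Groups did not overlap for 35 lower and 11 higher members, beside 8.09% and 7.86% of all genes, and the lower share was 17.2% of the members and 15.4% of other Olfr genes. DESeq2 called 5 members, Olfr1216, Olfr1234, Olfr1250, Olfr1252 and Olfr1258, all lower, and 1.17% of all genes. With the scaling over Olfr genes the split turned to 12 lower and 17 higher and the median log2 fold change from -0.13 to 0.05, so the direction of the group rests on the scaling. Olfr1216 had 5.06, 3.69 and 4.91 CPM in the Ms4a cluster knockout and 9.51, 7.13 and 8.47 CPM in the Ms4a6c knockout (log2 fold change -0.87, SE 0.16, adjusted p = 0.0648 by edgeR), with wild type between them at 5.40, 5.60 and 5.63 CPM. Olfr1234 had 4.01, 1.99 and 2.56 CPM against 5.49, 6.82 and 7.26 CPM (log2 fold change -1.16, SE 0.24, adjusted p = 0.0906 by edgeR). Olfr1252 had 9.77, 13.7 and 12.8 CPM against 15.2, 25.2 and 22.4 CPM, and Olfr1111 had 1.60, 2.19 and 1.75 CPM against 3.20, 3.85 and 2.99 CPM. In none of the 4 did the knockouts overlap.

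**Figure D5:**
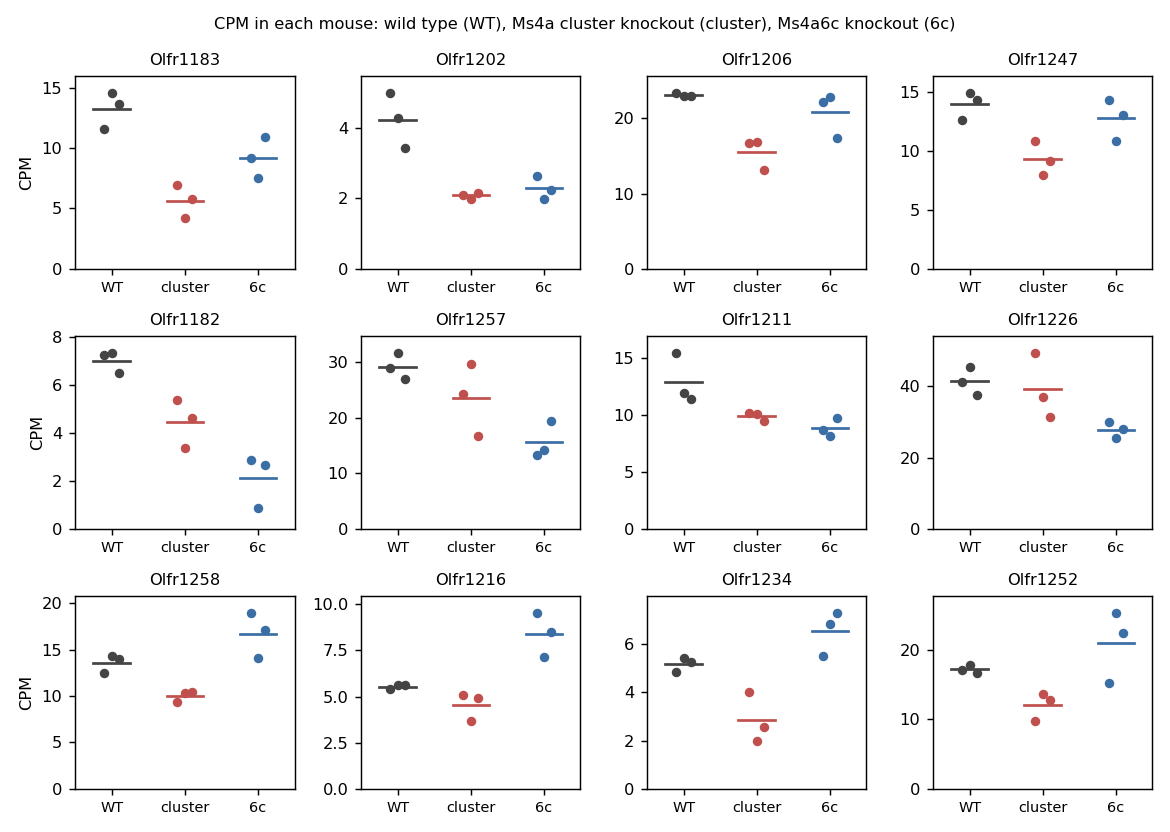
CPM of 12 members with the smallest p-values in the 3 genotype comparisons, 1 point per mouse and a line at the group mean (n = 3), with axes from 0. Top row, members lowest in the Ms4a cluster knockout; middle row, members lowest in the Ms4a6c knockout; bottom row, members highest in the Ms4a6c knockout, including Olfr1258.

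Among genes that act on receptor choice and signalling, Gng13 was the 1 that passed. Of 26 such genes, among them the chaperones Rtp1 and Rtp2, the transduction channel Cnga2 and the choice regulators Lhx2, Ldb1 and Ebf1, 0 passed between wild type and Ms4a cluster knockout by edgeR or DESeq2, with 1 at an unadjusted p under 0.05, where 4.93% of all genes tested were. In the Ms4a6c knockout 2 of the 26 were at that level and between the knockouts 3, where 10.5% and 9.38% of all genes tested were. In the Ms4a6c knockout Gng13, a gamma subunit of the olfactory G protein, fell from 359 ± 11.8 to 193 ± 12.8 CPM (SD, n = 3), a log2 fold change of -0.89 (SE 0.09, adjusted p = 0.00121 by edgeR). Between the knockouts it was higher in the Ms4a cluster knockout, at 373 ± 44.8 CPM, a log2 fold change of 0.95 (SE 0.09, adjusted p = 0.00073 by edgeR), and DESeq2 called it in both comparisons. Genes outside the receptor family were read on the proximal side (20), on the distal side (20) and inside the cluster (5), and 0 of these passed in any comparison by edgeR or DESeq2. At an unadjusted p under 0.05 there were 0 in the Ms4a cluster knockout, 2 in the Ms4a6c knockout and 5 between the knockouts, beside 4.93%, 10.5% and 9.38% of all genes tested. As 0 members passed against wild type either, these counts do not set the neighbours apart from the cluster. Among cell type markers, those of mature neurons summed to 10761 to 12484 CPM in wild type, 9844 to 12476 CPM in the Ms4a cluster knockout and 11766 to 12358 CPM in the Ms4a6c knockout, and overlapped. Of the 6 mature neuron markers, Gng13 was the 1 that passed.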

How the data were processed

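Main olfactory epithelium was dissected, poly(A) RNA was sequenced, and per the labels and the study's methods the authors aligned reads with STAR 2.6.1 and quantified them with RSEM 1.3.1 on mm10 with GENCODE annotation, which gave the deposited expected counts per gene in each of 9 mice. Expected counts need not be whole, since reads shared by similar genes are divided by an estimate, and were rounded here. Members and gene lists were chosen with earlier results of these data known.

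Genes with at least 10 counts over the 9 mice (23225) were fitted by genotype in all mice with edgeR 4.0.16 (R 4.3.3), TMM scaling and the quasi-likelihood test, with Benjamini-Hochberg adjustment over all of them. The SE was taken from the log2 fold change and its F statistic (change over root F). CPM used the same scaling, and exact permutation tests over mice (scipy 1.17.1) served the summed values. Scripts were tested on simulated data. Nothing states whether mice of a group came from separate litters, so p-values measure the spread between these mice only.

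Coordinates, exon lengths and reading frames came from GENCODE M21 (GRCm38), to which 99.6% of the genes were matched by identifier; the authors' release differed. Promoter windows came from RefSeq (GRCm38.p6). Relatives came from BLAST 2.17.0 of reading frames, or of whole transcripts for members without a frame of at least 900 bases. Members with 10 or more counts were named where they were among the 10 highest in wild type per kb, the 3 highest with -ps, the 5 smallest p of a comparison or past the threshold, nearest the detection limit, the 3 most or least variable, at the ends of the cluster, near-identical to these, or Olfr1019. Olfr1178 to Olfr1184, Olfr1024, Olfr1250 and Olfr1238 were named after their values were seen, and so were Olfr1097 and the copies in the text. DESeq2 1.42.0, other scalings and filters, covariates, the replicate block and leaving out mice were alternatives. A fit without the 2 libraries rich in gland transcripts was added after seeing the data.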

Additional observations from a re-analysis of the deposited data

Results flagged for a closer look

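Olfr1258 differed between the knockouts: its log2 fold change against wild type was -0.44 in the Ms4a cluster knockout and 0.30 in the Ms4a6c knockout, and the test of the difference itself, Ms4a cluster against Ms4a6c knockout, gave an edgeR adjusted p of 0.0284. The 3 Ms4a cluster knockout mice were below all wild-type mice, while Ms4a6c knockout mouse 2, at 14.1 CPM, was below wild-type mouse 2 at 14.3 CPM. Over 16 other settings 8 kept the call and 8 lost it.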

How the results depend on the processing

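Counts of members passing an adjusted p under 0.05 were small and changed with the setting. For the Ms4a cluster knockout against wild type (0 by edgeR) there was 1 with no filter and 1 by DESeq2, both Olfr1183, and 0 in each fit without 1 mouse. For the Ms4a6c knockout against wild type (0) there were 2 with no filter, 1 with the compared genotypes alone, 4 by DESeq2, and 0 to 1 in the fits without 1 mouse, the 1 being Olfr1184 without Ms4a6c knockout mouse 1. Between the knockouts (1) there were 0 with TMM over Olfr genes, 4 with no filter, 0 with the compared genotypes alone, 5 by DESeq2, 0 at an adjusted p under 0.01, 2 without the 2 libraries rich in gland transcripts (Olfr1238 and Olfr1258), and 0 to 1 without 1 mouse. In that range it was 0 without Ms4a6c knockout mouse 3 or Ms4a cluster knockout mouse 2 or 3, Olfr1252 without Ms4a6c knockout mouse 1 and Olfr1234 without Ms4a cluster knockout mouse 1. The cause was not tested.

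Leaving out 1 mouse gave summed CPM differences of -201 to -132 (Ms4a cluster knockout), -98.5 to -43.5 (Ms4a6c knockout) and -123 to -68.4 (between knockouts), and share differences of -1.51 to -0.779, -1.44 to -0.801 and -0.391 to 0.338 percentage points. The last difference also turned to -0.391 without the 2 gland-rich libraries, and the summed Ms4a6c difference turned to 74.6 CPM with plain library totals.

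Replicate numbers did not pair the mice: correlations of same-numbered deviations ran from -0.537 to 0.107. With the replicate block 0 members passed in each comparison, and the edgeR adjusted p of Olfr1258 was 0.118. Detection limits of 1 and 30 counts gave 236 and 193 members, and at least 3 counts in each mouse gave 180.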

Other observations

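Detection also went with the gene model. Of 197 members with a frame of at least 900 bases and annotated untranslated bases upstream of it, 193 were detected, against 3 of 16 with such a frame and a model of coding bases alone. The median exon length was 3060 bases in detected and 942 bases in undetected members with a full frame. Untranslated exons are annotated from observed transcripts, so the model is not independent of expression.

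Near-identical neighbours were alike in level in some cases and not in others. Olfr1261 and Olfr1263, 95.4% identical, had 14.6, 27.3 and 22.5 CPM and 17.6, 24.2 and 24.2 CPM in wild-type mice and 19.0, 9.80 and 11.6 CPM and 18.4, 9.93 and 12.6 CPM in Ms4a6c knockout mice. Both were lowest in Ms4a6c knockout mouse 2. In contrast Olfr1248, 97.0% identical to Olfr1250, had 0 counts in all 9 mice, which allows up to 3 counts in all, while Olfr1250 had 2.11 to 5.90 CPM. How far shared reads shaped these values was not tested.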
